A study of Danio rerio with 16 samples.

Results

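The response of wild-type zebrafish embryos to TCDD (2,3,7,8-tetrachlorodibenzo-p-dioxin) was measured in 6 of the 14 RNA libraries of the count table, the 3 of Tropical 5D wild type exposed to TCDD and the 3 of the same line exposed to vehicle. They were taken by their column names, which carry replicate numbers 1, 3 and 4 in both groups. The count table has no column for replicate 2 of either group, and the labels list 16 samples in all. Each library came from 9 whole embryos pooled from 1 dish. Embryos were exposed at 4 h post fertilization (hpf) for 1 h to TCDD at 1 ng/mL or to DMSO at 0.1%, rinsed, and collected at 48 hpf. The other 8 libraries were of a wfikkn1 mutant line under the same treatments, 4 per group, and served to estimate the spread between libraries and for a comparison between lines.

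TCDD binds the aryl hydrocarbon receptor (AHR), a transcription factor that pairs with ARNT in the nucleus and activates genes of xenobiotic metabolism, above all cytochromes P450 of family 1. The receptor's own repressor genes belong to its targets and close a feedback loop. In zebrafish, ahr2 is the receptor through which TCDD acts in embryos, and exposed embryos are known to develop defects of the heart, jaw cartilage, fins and circulation. Libraries were made from whole embryos, so that fewer cells of a type and less RNA per cell cannot be told apart in any value below.

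Counts were scaled to CPM, the reads of a gene per 1000000 reads of the library after scaling, and tested in 20098 genes with enough reads. A gene was called when its p from edgeR's quasi-likelihood F test, adjusted by Benjamini and Hochberg over these genes, lay under 0.05. Changes are log2 fold changes of TCDD over DMSO, with their SE. With TCDD, 1777 genes were higher (8.84% of those tested) and 1156 lower (5.75%). The median change over all tested genes was 0.03. Fitted on the 6 wild-type libraries alone, 773 were higher (4.02%) and 397 lower (2.06%), of which 763 and 387 were also called in the fit of 14 libraries. The share of calls that were higher was 60.6% in the main fit, 49.7% with DESeq2 and 48.6% without replicate 4 of wild-type DMSO, so the balance of both directions moved with the method. Without replicate 1 of wild-type DMSO 1177 genes were higher, and without replicate 3 of wild-type TCDD 602 were lower. Of 193 of the called genes named in what follows, 57 lost their call without at least 1 of the 6 wild-type libraries. Nothing in the labels says that dishes came from separate clutches, and p-values measure the spread between these pools.

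Total counts ran from 21856117 to 24836972 in the 6 wild-type libraries. Libraries of the same group differed along 1 shared axis that held 28.8% of the variance within groups. Scores on it were -0.987, 10.7 and -40.3 in wild-type DMSO and 28.1, 14.8 and 19.2 in wild-type TCDD, so that all TCDD libraries lay above all DMSO libraries, and replicate 4 of DMSO stood apart from the rest. With the score as a term in the fit, 654 genes were higher (3.19%) and 483 lower (2.35%). Because the scores keep the difference between groups, such a fit also takes away part of any TCDD effect that runs along the axis. Genes that were higher with TCDD had a median weight on the axis at percentile 87.6 of all genes weighted, and genes that were lower at percentile 43.8. Weights carry a sign, so genes at the lowest percentiles tended to fall where scores rose. In what follows some groups of genes with high or low weights are given with that percentile. The part of the axis in their changes was not tested.

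The balance of rises and falls varied with how abundant a transcript was. Among the 4853 genes with a mean of 1 to under 5 CPM over the 6 libraries, 412 were higher and 65 lower. In the middle of the range, at 5 to under 100 CPM, 1114 of 10427 genes were higher (10.7%) and 697 lower (6.68%). Among the 1971 genes at 100 CPM and over the order turned, with 162 higher (8.22%) and 371 lower (18.8%). Of 2847 genes under 1 CPM, 89 were higher and 23 lower. The same turn was seen in the 6 wild-type libraries alone, with 469 higher and 245 lower at 5 to under 100 CPM and 50 higher and 134 lower at 100 CPM and over, and with the score as a term, with 444 and 281 against 118 and 176. With DESeq2 the middle band was even, at 1134 higher and 1138 lower. It was near even with median-ratio scaling of the libraries (941 and 913) and with a filter of 1 CPM in 3 libraries (989 and 941). Without a filter it held 924 and 834, without replicate 4 of wild-type DMSO 747 and 716, and with limma-voom 1205 and 726. At 100 CPM and over, falls outnumbered rises in all of these fits. CPM is not corrected for transcript length, so the bands mix abundance with length. Their means include the TCDD libraries, so a large change can itself move a gene into another band.

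**Figure D1:**
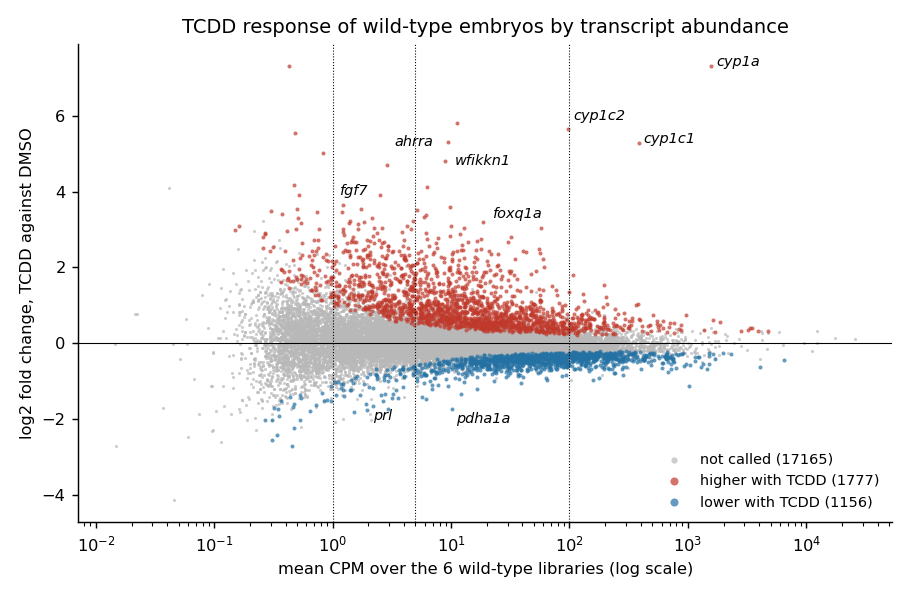
Log2 fold change of TCDD against DMSO (vertical axis) by mean CPM over the 6 wild-type libraries (horizontal log axis), 1 point per tested gene, dotted lines at 1, 5 and 100 CPM. The 1777 genes called higher fill the low and middle range and reach far up, while the 1156 called lower crowd above 5 CPM and stay closer to 0.

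**Figure D2:**
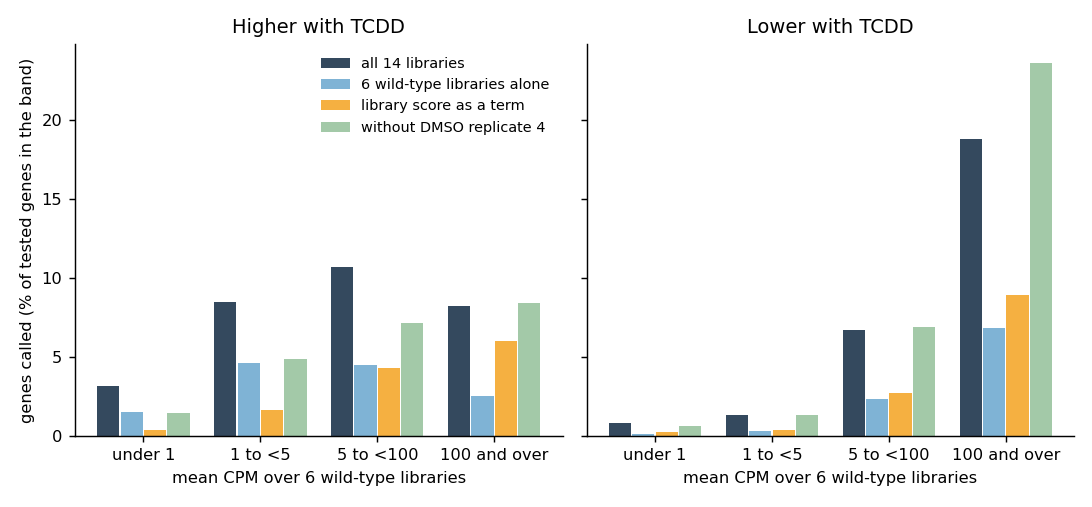
Percent of the tested genes of each CPM band that were called higher (left) or lower (right) with TCDD, under 4 fits. In all 4 the share called lower is largest at 100 CPM and over, 18.8% with all 14 libraries and 6.8% with the 6 wild-type libraries alone.

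Changes of called genes were small where transcripts were abundant. The median size of a called change was 1.88 on the log2 scale under 1 CPM, 1.27 at 1 to under 5 CPM, 0.585 at 5 to under 100 CPM and 0.396 at 100 CPM and over. The median SE of a gene fell in the same order, from 0.526 to 0.291, 0.144 and 0.0934, so that abundant genes could be called at changes which the reads of rare genes do not resolve. In a simulation of this comparison, 25% of genes changed 1.5-fold, 61.6% of those changed 2-fold and 85.9% of those changed 4-fold were recovered. It also called 9 unchanged genes. The simulation changed 200 genes of any abundance and drew each gene independently. It thus held no shared axis and fewer changed genes than were called here, and does not give recovery by abundance.

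Most tested genes of the AHR battery, a list of genes known to be induced through the receptor, rose. The list was drawn up with earlier results of these data known, so its share of rises is a description. Of 12 tested members 9 were higher and none lower, and all 9 stayed called with the score as a term. The forkhead gene foxq1a stood at 4.07, 3.11 and 3.65 CPM in DMSO and at 30.6, 35.8 and 33.6 CPM with TCDD, a change of 3.2 ± 0.17 (adjusted p = 2.34e-09). The gene tiparp, for a polymerase that modifies and restrains AHR, went from 13.3, 17.4 and 13.9 to 35, 33.7 and 33.2 CPM (1.19 ± 0.11, adjusted p = 9.38e-06). The transcription factor gene nfe2l2b, a duplicate of the NRF2 gene, went from 6.76, 7.79 and 6.46 to 25.5, 21.1 and 24.8 CPM (1.77 ± 0.16, adjusted p = 3.01e-06). In these genes the replicates of a group lay close together and far from the other group. The others that rose were cyp1a (7.32 ± 0.13), cyp1c1 (5.29 ± 0.14), cyp1c2 (5.64 ± 0.15), the AHR repressor genes ahrra (5.30 ± 0.23) and ahrrb, and foxq1b (0.88 ± 0.20), which missed the threshold in the 6 wild-type libraries alone (adjusted p = 0.0504). For ahrrb, DMSO libraries held 0, 0 and 1 reads and TCDD libraries 19, 21 and 25, so its fitted fold is no bound. Not called were cyp1d1 (0.12 ± 0.14), the quinone reductase gene nqo1 (0.25 ± 0.17) and the glucuronosyltransferase gene ugt1ab (0.44 ± 0.15). CYP1B1 had 0, 0 and 0 reads in DMSO and 0, 0 and 4 with TCDD and was not tested. In all, transcripts of the tested battery took 128 to 142 CPM in DMSO and 4195 to 4402 CPM with TCDD.

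Beyond the battery, TCDD raised a second set of metabolic genes in the middle and upper range of abundance. The gene ugt1b1, for an enzyme that joins glucuronic acid to xenobiotics, stood at 18.8, 15.0 and 20.2 CPM in DMSO and 78.6, 102 and 100 CPM with TCDD (2.38 ± 0.13, adjusted p = 3.26e-09). Its relative ugt1b5 went from 39.6, 39.5 and 48.2 to 120, 96.9 and 121 CPM (1.41 ± 0.12, adjusted p = 3.39e-06); these genes belong to a multigene family, and reads could be shared between its members. The sulfotransferase gene sult6b1 went from 9.59, 11.1 and 20.3 to 71.8, 73.2 and 72.0 CPM (2.41 ± 0.18, adjusted p = 4.78e-07). In each of them the lowest TCDD library was at least as far above the highest DMSO library as DMSO libraries were from each other. The glutathione transferase gene gstp1 went from 73.3, 81.7 and 98.6 to 147, 185 and 211 CPM (1.1 ± 0.12, adjusted p = 6.56e-05). Cytochrome b5, which passes electrons to P450 enzymes, is coded by cyb5a, whose level went from 113, 77.8 and 110 to 314, 235 and 321 CPM (1.53 ± 0.13, adjusted p = 2.61e-06). The list of conjugating enzymes as a whole was not raised: of 52 tested, 5 were higher and 1 lower, with a median change of 0.0094. The fifth that rose was sult2st1 (0.37 ± 0.11), whose call was lost in the 6 wild-type libraries alone, and the one that fell was gstm.1 (-0.67 ± 0.15).

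Few P450 genes outside family 1 were called. Of 54 tested, cyp24a1 (0.87 ± 0.25), for the enzyme that inactivates vitamin D, and cyp2aa7 (1.3 ± 0.39) were higher, and neither was called in the 6 wild-type libraries alone. Lower were cyp26b1, which degrades retinoic acid (-0.65 ± 0.14), cyp3c3 (-1.34 ± 0.35), cyp51 of sterol synthesis (-0.52 ± 0.14) and cyp2r1 (-0.98 ± 0.26). Of these cyp26b1 and cyp2r1 were also called in the 6 wild-type libraries alone. Antioxidant genes of the NRF2 programme gave 1 rise and 1 fall in 23. The heme oxygenase gene hmox1a stood at 7.11, 6.30 and 7.04 CPM in DMSO and 19, 22.0 and 16.8 CPM with TCDD (1.5 ± 0.21, adjusted p = 0.000577), and prdx1, a peroxiredoxin gene, was lower (-0.39 ± 0.10), a call lost in the 6 wild-type libraries alone and without replicate 1 or replicate 3 of wild-type TCDD. The receptor gene ahr2 itself went from 257, 261 and 203 to 513, 465 and 469 CPM (1.00 ± 0.09, adjusted p = 3.47e-06).

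Of the 12 rises of mid abundance with the smallest adjusted p that met the rule for named genes, 3 were the conjugation genes ugt1b1, sult6b1 and ugt1b5, given above. The connective tissue growth factor gene ccn2b stood at 4.02, 3.43 and 3.12 CPM in DMSO and 22.2, 16.8 and 18.2 CPM with TCDD (2.43 ± 0.14, adjusted p = 1.17e-08). The neural cell adhesion molecule gene ncam3 went from 8.91, 8.99 and 7.48 to 30.6, 27.3 and 35.3 CPM (1.87 ± 0.13, adjusted p = 8.82e-08). The gene bmp1a, for a protease that matures procollagens, went from 33.4, 36.2 and 35.7 to 71.8, 82.5 and 76.7 CPM (1.13 ± 0.09, adjusted p = 3.95e-07). DMSO libraries lay close together in all of these, and every TCDD library lay far above them. Next came pkhd1l1, whose product sits on stereocilia of hair cells in mice, at 20.3, 24.2 and 19 against 131, 77.5 and 87.4 CPM (2.22 ± 0.19), with replicate 1 of TCDD the highest. The gene mutated in the other line, wfikkn1, which codes for a secreted antagonist of myostatin, went from 0.428, 0.556 and 0.846 to 9.56, 18 and 23.9 CPM (4.80 ± 0.41, adjusted p = 2.56e-06). In DMSO both wfikkn1 and ccn2b lay under 5 CPM, so their TCDD values placed them in the middle band. The glycogen phosphorylase gene pygl (0.84 ± 0.10), the forkhead gene foxf2a (1.1 ± 0.13), which is expressed in brain pericytes of zebrafish, the gene tril (0.99 ± 0.12), for a partner of Toll-like receptors, and the kinase gene aatka (1.25 ± 0.16) completed the 12. The rule that chose them asked for groups that do not overlap, which holds for 27.6% of all tested genes, and each of the 12 kept its call without any 1 library. The axis weights of pkhd1l1 and aatka lay at percentiles 85.7 and 86.4, and aatka was not called in the mutants (-0.24).

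The 12 falls of mid abundance, chosen in the same way, ranged from -1.01 to -0.53. The gene tmem242 went from 27.4, 28.6 and 36.5 CPM in DMSO to 15.7, 15.5 and 14.9 CPM with TCDD (-1.01 ± 0.11, adjusted p = 6.56e-05); in human cells its product takes part in assembly of mitochondrial ATP synthase. The gene of a mitochondrial ribosomal protein, mrpl17, went from 49.0, 51.4 and 57.3 to 26.8, 28 and 29.7 CPM (-0.90 ± 0.14, adjusted p = 0.00113), and grpel1, for a cofactor of the mitochondrial HSP70, from 81.2, 78.3 and 79.9 to 59.3, 48.9 and 57.8 CPM (-0.53 ± 0.08, adjusted p = 0.00139). The ADP-ribosyltransferase gene parp6a went from 79.0, 75.9 and 92.8 to 42.1, 40.4 and 47.4 CPM (-0.93 ± 0.13, adjusted p = 0.000438). The splicing factor gene isy1 went from 110, 113 and 114 to 72.5, 71.5 and 78.8 CPM (-0.60 ± 0.08, adjusted p = 0.000335). In both, the lowest DMSO library lay well above the highest TCDD library. The remaining genes were SIKE1, a suppressor of innate signalling (-0.69 ± 0.09), naa38, a subunit of an N-terminal acetyltransferase (-0.63 ± 0.09), the RNA-binding gene larp4ab (-0.90 ± 0.13), tmem263 (-0.87 ± 0.12), sdf2, of the endoplasmic reticulum (-0.65 ± 0.09), kctd7 (-0.73 ± 0.11) and plcxd1 (-0.82 ± 0.13). All 12 were also called lower in the mutants, with smaller falls there in tmem242 (-0.39) and naa38 (-0.26), for which the difference between lines was called. The axis weights of parp6a and tmem263 lay low, at percentiles 13.6 and 12, and both kept their calls with the score as a term.

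**Figure D3:**
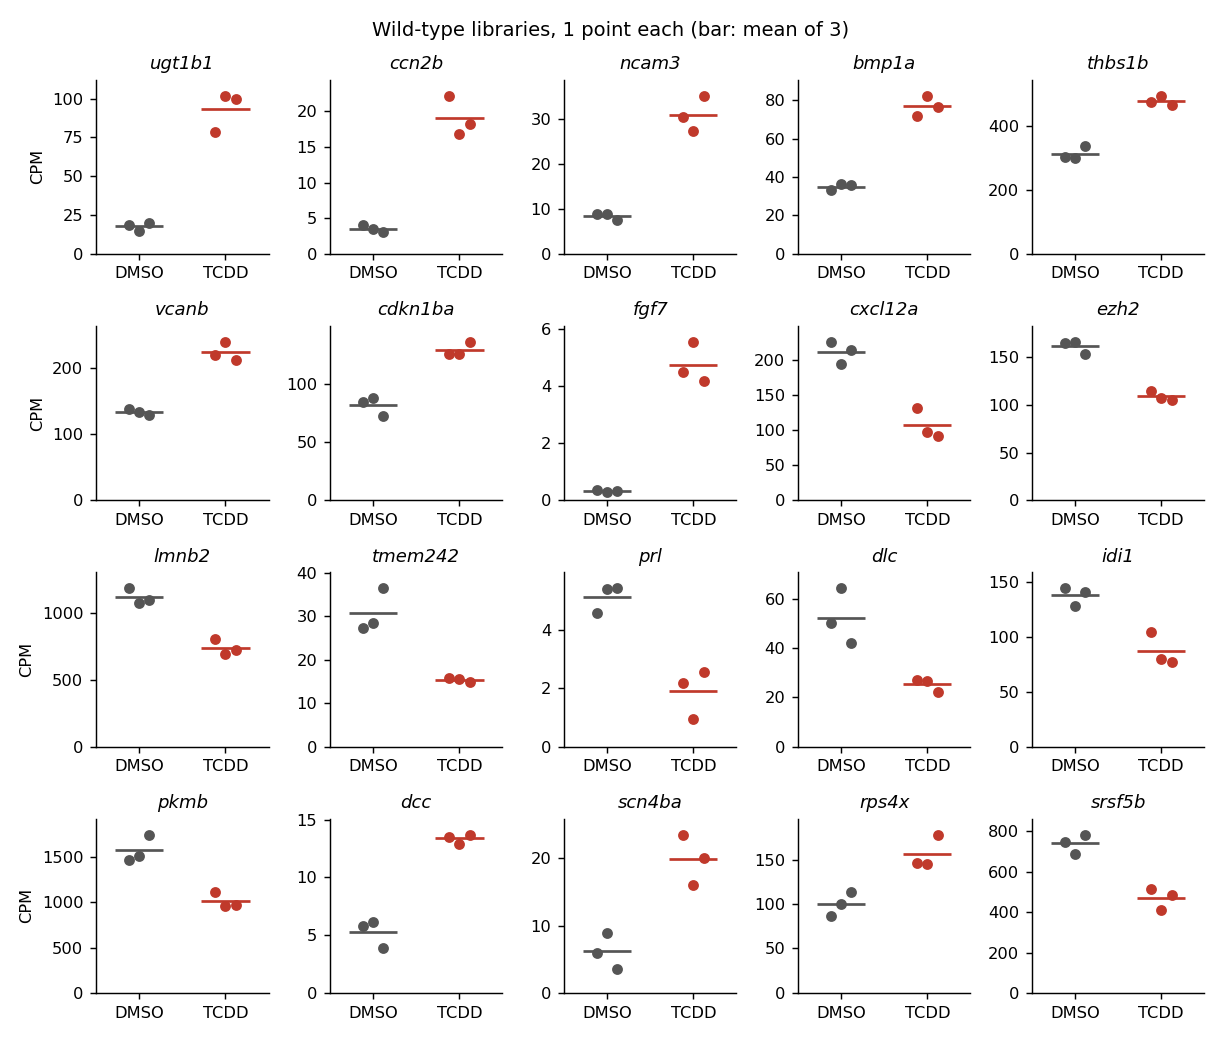
CPM of 20 genes in the 6 wild-type libraries, 1 point per library with a bar at the mean of 3, DMSO in grey and TCDD in red, each vertical axis starting at 0. In no panel do the groups overlap, which the rule for named genes required of most of the 20. Groups do not overlap in 27.6% of all tested genes. The steps run from 15-fold in the means of fgf7 to the small ones of ezh2, lmnb2 and rps4x.

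Among abundant transcripts, the 6 rises of smallest p that met the rule for named genes included genes of matrix and cell cycle. The thrombospondin gene thbs1b stood at 302, 301 and 338 CPM in DMSO and 475, 496 and 467 CPM with TCDD (0.61 ± 0.07, adjusted p = 6.56e-05). The gene vcanb, for the proteoglycan versican of embryonic matrix and heart jelly, went from 139, 134 and 129 to 220, 240 and 213 CPM (0.74 ± 0.08, adjusted p = 7.27e-05). The gene cdkn1ba, for the cell cycle inhibitor p27, went from 84.1, 88.1 and 72.0 to 126, 126 and 136 CPM (0.67 ± 0.08, adjusted p = 0.000157). In each the groups of libraries stayed apart, as the rule required, at changes under 1 on the log2 scale. The other abundant rises of the 6 with the smallest p were cyb5a, gstp1 and ahr2, given above.

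The 6 falls chosen in the same way included ezh2, lmnb2 and cxcl12a. The chemokine gene cxcl12a, whose product guides primordial germ cells and the lateral line primordium, stood at 225, 193 and 213 CPM in DMSO and 131, 97.0 and 91.4 CPM with TCDD (-0.98 ± 0.13, adjusted p = 0.000335). The lamin gene lmnb2 went from 1184, 1076 and 1099 to 805, 690 and 724 CPM (-0.60 ± 0.08, adjusted p = 0.000335). The gene ezh2, for the methyltransferase of Polycomb complex 2, went from 165, 166 and 153 to 115, 107 and 105 CPM (-0.57 ± 0.08, adjusted p = 0.000394). Each fell in all TCDD libraries by more than the DMSO libraries differed. The others of the 6 were sephs2 of selenoprotein synthesis (-0.67 ± 0.09), tmem35 (-0.76 ± 0.09) and the zinc finger gene znf281a (-0.54 ± 0.07).

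Rare transcripts gave large folds from few reads. The growth factor gene fgf7 stood at 0.343, 0.278 and 0.312 CPM in DMSO and 4.51, 5.56 and 4.18 CPM with TCDD (3.91 ± 0.27, adjusted p = 1.55e-07). The gene ostn, for the secreted peptide osteocrin, went from 0.471, 0.788 and 0.713 to 4.02, 3.65 and 2.80 CPM (2.41 ± 0.29, adjusted p = 0.000164), and the collagenase gene mmp13a (ENSDARG00000012395) from 1.2, 1.58 and 1.96 to 4.11, 5.12 and 6.30 CPM (1.71 ± 0.25, adjusted p = 0.000884). A second gene of that name, ENSDARG00000114451, had a change of 1.38, and reads could be shared between them. The prolactin gene prl, a pituitary hormone of salt balance in fish, went from 4.58, 5.42 and 5.43 to 2.19, 0.953 and 2.57 CPM (-1.44 ± 0.29, adjusted p = 0.00565). Rises also included the synaptic gene iqsec3b (2.03 ± 0.30) and the potassium channel gene kcnc3b (2.32 ± 0.35). Falls also included cx44.2, a connexin gene (-0.88 ± 0.19), mfsd2ab, a transporter of lysolipids (-1.25 ± 0.28), the activin family gene INHBC (-1.60 ± 0.39) and the microRNA gene dre-mir-125a-2 (-1.53 ± 0.37). The calls of mfsd2ab and INHBC were lost with the score as a term, and that of dre-mir-125a-2 without replicate 3 of wild-type TCDD. Libraries were poly(A)-selected, so the last value counts transcripts over the hairpin gene and not the mature microRNA.

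Tissue programmes were read from 80 gene lists, given as members called beside the 8.84% higher and 5.75% lower of all tested genes. In the skeleton, several cartilage genes fell: of 34 tested members 8 were lower (23.5%) and 4 higher (11.8%), with 4 and 1 in the 6 wild-type libraries alone. The collagen IX gene col9a3 stood at 886, 817 and 958 CPM in DMSO and 627, 583 and 677 CPM with TCDD (-0.50 ± 0.09, adjusted p = 0.00265). The proteoglycan gene epyc went from 558, 474 and 587 to 385, 383 and 378 CPM (-0.50 ± 0.08, adjusted p = 0.00126), and sox9b, the chondrocyte regulator, from 249, 239 and 207 to 132, 131 and 185 CPM (-0.63 ± 0.14, adjusted p = 0.00718). In each the groups were apart, although replicate 4 of TCDD lay nearer to DMSO in sox9b. The other rises were matn4 (0.38 ± 0.09), nkx3-2 (0.74 ± 0.19) and ext1a (0.66 ± 0.21) beside xylt1 of proteoglycan synthesis (2.41 ± 0.45), whose axis weight lay at percentile 98.4 and which fell in the mutants. The median of the list was 0.022, so the falls were of some members and not of the list. Both col9a3 and epyc were also on the notochord list, of which 5 of 31 tested were lower (16.1%) and 3 higher (9.68%). In the 6 wild-type libraries alone 2 of the notochord list were lower and 2 higher. Whole embryos cannot assign the falls of shared genes to cartilage or notochord. Bone gave no rise and 2 falls in 22: col10a1a, a collagen of hypertrophic cartilage and early bone, went from 234, 215 and 268 to 143, 147 and 173 CPM (-0.63 ± 0.12, adjusted p = 0.00348), and the osteoblast regulator sp7 was lower (-0.68 ± 0.16), a call lost in the 6 wild-type libraries alone and without replicate 3 or replicate 4 of wild-type TCDD.

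Genes of tendon, dermis and fin fold went the other way. Of 43 tested, 14 were higher (32.6%) and 4 lower (9.3%); in the 6 wild-type libraries alone 5 were higher and 2 lower. The actinodin gene and3, a structural protein of fin fold rays, stood at 35.3, 41.7 and 50.6 CPM in DMSO and 64.5, 68.0 and 77.6 CPM with TCDD (0.72 ± 0.12, adjusted p = 0.00179). The fibril-associated collagen gene col12a1b went from 148, 160 and 103 to 348, 231 and 264 CPM (1.04 ± 0.21, adjusted p = 0.00495), with replicate 4 of DMSO the lowest, and crip2, a LIM domain gene, was lower (-0.52 ± 0.10). The axis weight of col12a1b lay at percentile 96, and col12a1b fell in the mutants (-0.49), while and3 rose there (1.06). The list had a median of 0.16 in wild type and -0.12 in mutants, where 11 members were higher and 16 lower. Its median weight on the axis lay at percentile 49. Of 28 basement membrane genes 8 were higher and 2 lower, with 3 and none in the 6 wild-type libraries alone and 4 higher without replicate 4 of wild-type TCDD and 5 without replicate 3 of TCDD or replicate 4 of DMSO. They included lama4, a laminin of vessel walls (0.48 ± 0.07, adjusted p = 0.00117), lamc1, a laminin of notochord and somites (0.63 ± 0.11, adjusted p = 0.00265), and hspg2, which codes for perlecan (1.29 ± 0.24, adjusted p = 0.00332). The axis weight of hspg2 lay at percentile 97.1, and hspg2 fell in the mutants (-1.10), where lama4 (0.44) and lamc1 (0.34) were higher. Of 39 genes of MMP and ADAMTS metalloproteinases and their TIMP inhibitors 11 were higher and none lower (median 0.19), with 8 and none in the 6 libraries alone; besides mmp13a the gelatinase gene mmp9 was higher at 7.06, 7.83 and 5.57 against 13.8, 16.6 and 15.3 CPM (1.16 ± 0.24, adjusted p = 0.00575). With the score as a term 3 of the list were higher, and the list's median weight lay at percentile 78.6. In the mutants the median of this list was -0.28, with 9 members higher and 17 lower, although mmp13a (2.86) and mmp9 (1.14) rose there. DESeq2 called 11 of the list higher and 1 lower.

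Of the muscle genes, those of fast fibres that were called in the main fit were all higher, and other muscle lists held calls in both directions. DESeq2 called 9 fast muscle genes higher and 2 lower. Of 44 fast muscle genes 9 were higher and none lower, with a median of 0.15, and transcripts of the list took 85935 to 97588 CPM in DMSO and 97272 to 108345 CPM with TCDD, ranges that overlap. The myosin light chain gene myl1 stood at 356, 369 and 454 CPM in DMSO and 515, 589 and 504 CPM with TCDD (0.45 ± 0.09, adjusted p = 0.00619). In the 6 wild-type libraries alone 1 was called, the calcium release channel gene ryr3 (0.74 ± 0.16), which was lower in the mutants, and 4 and 5 were called without replicate 1 and replicate 3 of wild-type DMSO. Of 15 slow muscle genes 3 were lower (20%) and 1 higher, the tropomyosin gene tpm2 (-0.50 ± 0.12), the myosin light chain gene myl10 (-0.48 ± 0.15) and the slow fibre regulator prdm1a (-0.28 ± 0.09) against the calcium release channel gene ryr1a (0.76 ± 0.23). None of them was called in the 6 wild-type libraries alone, and 1 was lower without replicate 3 of DMSO or replicate 1 or 3 of TCDD. Of 22 smooth muscle genes CNN1 (2.06 ± 0.66) and cspg4 (2.02 ± 0.37) were higher and smtnb (-0.49 ± 0.10) and tpm2 lower. Of 24 genes of myogenic regulation pax3b (1.33 ± 0.28), six4a (0.75 ± 0.17) and mef2aa (0.69 ± 0.21) were higher and mef2cb (-0.26 ± 0.07) and lbx2 (-0.47 ± 0.13) lower. Of these smooth muscle and myogenic calls, those of cspg4, pax3b and six4a were also made in the 6 wild-type libraries alone. The heart gave 4 rises (10.8%) and 2 falls (5.41%) in 37, shares near those of all tested genes. The cardiac myosin gene myh7l went from 38.7, 34.3 and 45.1 to 66.8, 62.8 and 67.2 CPM (0.74 ± 0.11, adjusted p = 0.000926). The hyaluronan synthase gene has2, needed for valve cushions, went from 17.6, 14.9 and 13.7 to 10.1, 6.99 and 6.80 CPM (-0.95 ± 0.16, adjusted p = 0.00239). Both kept their calls without any 1 library. The other calls were rises of myh6 (0.58 ± 0.17), bmp10 (1.15 ± 0.35) and the pacemaker channel gene hcn4 (2.97 ± 0.95) and a fall of nppa, for a natriuretic peptide (-0.44 ± 0.14); of these hcn4, which fell in the mutants, was called in the 6 libraries alone.

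The lists of vessels and blood held a few called genes each. Of 41 endothelial genes 5 were higher (12.2%) and 2 lower (4.88%), shares near those of all tested genes. Among them were vwf, for von Willebrand factor, at 2.61, 2.13 and 1.83 against 5.94, 6.32 and 4.74 CPM (1.37 ± 0.22, adjusted p = 0.00184), and tal1, a regulator of blood and vessel precursors, at 84.8, 68.4 and 68.6 against 52.5, 49.0 and 51.1 CPM (-0.54 ± 0.11, adjusted p = 0.00459). The others were plvapa (0.81 ± 0.22), aqp1a.1 (0.46 ± 0.14), the VEGF receptor gene kdrl (0.24 ± 0.07) and the lymphatic regulator prox1a (0.35 ± 0.11), all higher, and lyve1a (-1.5 ± 0.42), and none of these was called in the 6 wild-type libraries alone. Of 31 erythroid genes 6 were higher (19.4%) and 3 lower (9.68%), and the list's median weight on the axis lay at percentile 73.8. The erythrocyte carbonic anhydrase gene cahz went from 228, 240 and 224 to 158, 152 and 177 CPM (-0.50 ± 0.09, adjusted p = 0.00298), while the spectrin gene sptb (0.82 ± 0.16) and klf17 (0.83 ± 0.16), a regulator of early blood and hatching gland, were higher; sptb had an axis weight at percentile 94.4 and fell in the mutants (-0.48). The other falls were uros of heme synthesis (-0.39 ± 0.10) and the erythroid regulator klf1 (-0.65 ± 0.18). Without replicate 4 of wild-type TCDD 3 erythroid genes were higher. Of 10 pituitary genes 2 were lower and none higher, prl and neurod4 (-0.91 ± 0.18), a neurogenic factor. Ionocytes, the salt-transporting cells of the skin, gave 3 rises (10.7%) and 2 falls (7.14%) in 28, shares near those of all tested genes. The rises, of atp1a1a.1 (0.41 ± 0.08), RHCG (1.89 ± 0.52) and slc4a4b (0.55 ± 0.17), were not called in the 6 wild-type libraries alone, and both falls were: slc12a10.2, a sodium chloride cotransporter, went from 20.7, 28.5 and 20.6 to 13.2, 7.75 and 9.52 CPM (-1.2 ± 0.21, adjusted p = 0.00258), and the chloride channel clcn2c from 5.09, 7.97 and 7.66 to 3.75, 2.78 and 3.91 CPM (-0.99 ± 0.22, adjusted p = 0.00852).

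Among the lists read for the nervous system, those of axon guidance and ion channels held the most calls, most of them rises. They were also the longest, with 91 and 146 tested members, so this order is of counts and not of shares. Of 40 general neuronal genes 2 were higher, the neurofilament genes nefma (0.64 ± 0.14) and inab (0.31 ± 0.09), and 4 lower (10%), gng3 (-0.52 ± 0.11), snap25a (-0.36 ± 0.09), map2 (-0.28 ± 0.08) and stmn2a (-0.32 ± 0.09). Of 37 progenitor genes 4 were lower (10.8%) and 1 higher, the Notch ligand gene jag2a (1.19 ± 0.27), which fell in the mutants. A second Notch ligand gene, dlc, stood at 50.0, 64.3 and 41.9 CPM in DMSO and 27.1, 26.7 and 22.0 CPM with TCDD (-1.04 ± 0.18, adjusted p = 0.00264), and neurod4 at 240, 272 and 190 against 136, 106 and 130 CPM (adjusted p = 0.00522). Both fell in the mutants too. The other falls were gfap (-0.42 ± 0.10) and sox19b (-0.35 ± 0.11). DESeq2 called 8 of the neuronal and 7 of the progenitor genes lower, and in the 6 wild-type libraries alone 1 and 2 were. With the score as a term no neuronal gene was lower and 2 were higher, and the median axis weight of the neuronal list lay at percentile 23.4. Without replicate 3 of wild-type DMSO 7 neuronal genes were lower, and without replicate 3 of wild-type TCDD 1. Of 27 glial genes 5 were higher (18.5%) and 4 lower (14.8%). The myelin genes plp1a (-0.41 ± 0.09) and cnp (-0.48 ± 0.10), s100b (-0.62 ± 0.15) and gfap were the falls, and the proteoglycan gene cspg4, cldnk (1.43 ± 0.38), aqp4 (1.66 ± 0.45), erbb3b (0.76 ± 0.24) and cldn19 (0.45 ± 0.14) the rises. Of 25 hair cell genes none was called by edgeR or DESeq2, with 5 higher at an unadjusted p under 0.05, and of 27 photoreceptor genes pde6c alone was (0.86 ± 0.27), a call lost without replicate 3 or 4 of wild-type DMSO or replicate 1, 3 or 4 of wild-type TCDD.

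Of 91 axon guidance genes 28 were higher (30.8%) and 2 lower (2.2%), with 17 and none in the 6 wild-type libraries alone and 11 and none with the score as a term. The netrin receptor gene dcc stood at 5.78, 6.12 and 3.92 CPM in DMSO and 13.5, 12.9 and 13.7 CPM with TCDD (1.34 ± 0.21, adjusted p = 0.00124). The netrin gene ntn2 went from 10.9, 14.1 and 7.75 to 27.8, 25.1 and 24.6 CPM (1.24 ± 0.22, adjusted p = 0.00265), the plexin gene plxnb3 from 12.8, 16.5 and 7.48 to 70.7, 46.4 and 55 CPM (2.22 ± 0.40, adjusted p = 0.00293), and the ephrin receptor gene epha3 from 7.83, 11.1 and 5.48 to 19.8, 16.8 and 19.1 CPM (1.19 ± 0.22, adjusted p = 0.00324). Replicate 4 of DMSO was the lowest library in each of them, and no TCDD library reached down to the DMSO range. In the mutants all of them were lower after exposure. The list had a median of 0.24 in wild type and -0.18 in mutants, and its median weight on the axis lay at percentile 78.5.

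Ion channels showed the same pattern. Of 146 tested, 31 were higher (21.2%) and 2 lower (1.37%), with 19 and 1 in the 6 wild-type libraries alone, 6 and 1 with the score as a term, and 14 and 17 higher without replicate 4 of wild-type DMSO and replicate 1 of wild-type TCDD. The sodium channel subunit gene scn4ba stood at 5.91, 8.95 and 3.61 CPM in DMSO and 23.5, 16.0 and 20.1 CPM with TCDD (1.69 ± 0.30, adjusted p = 0.00301). The potassium channel gene kcnc3b went from 0.471, 0.556 and 0.891 to 2.77, 3.30 and 3.59 CPM, and KCNV1 from 0.771, 0.927 and 0.490 to 1.92, 2.3 and 2.71 CPM (1.66 ± 0.29, adjusted p = 0.00258). The groups were apart in each, and the changes were large beside the median of 0.32 for the list. In the mutants the median was -0.27, with 4 members higher and 50 lower. The median weight of the list on the axis lay at percentile 79.1, against percentile 50.4 for the AHR battery.

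**Figure D4:**
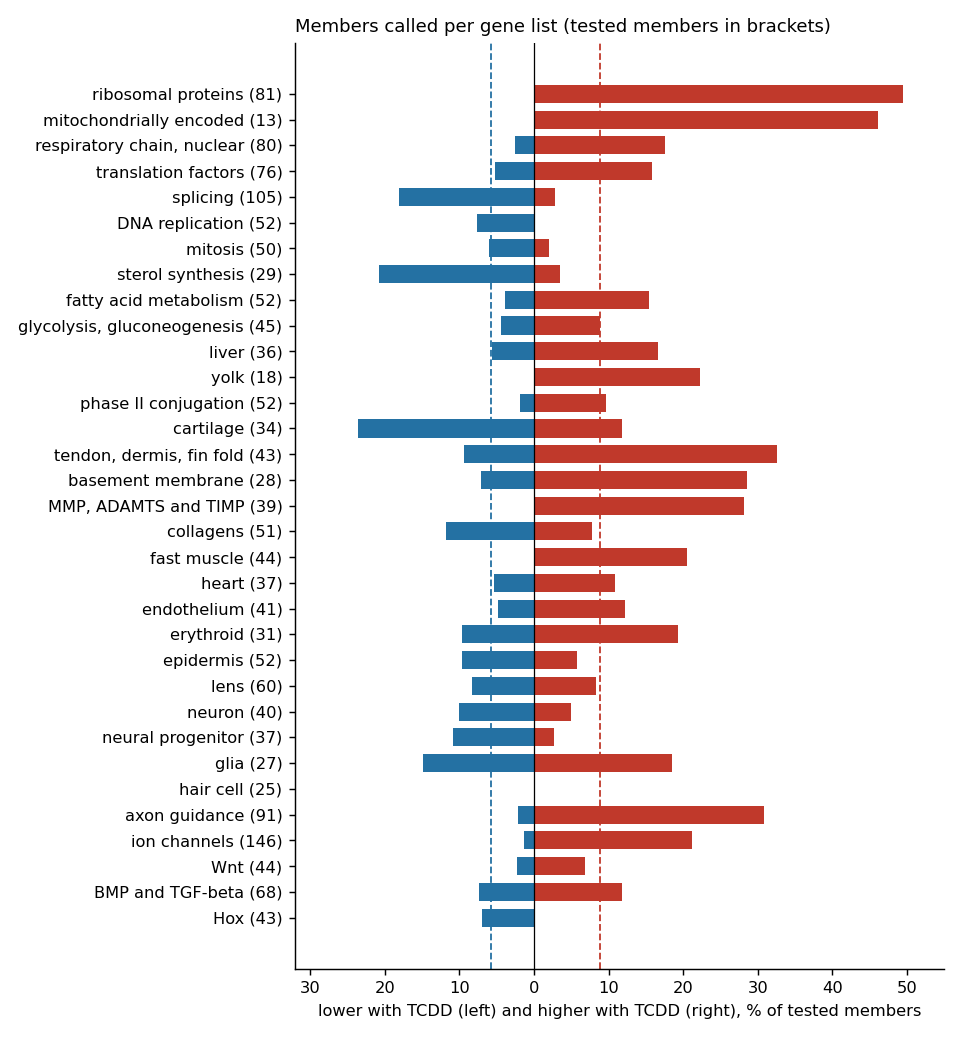
Percent of the tested members of 33 gene lists called higher (red, right) and lower (blue, left) with TCDD in wild type, number tested in brackets; dashed lines mark 8.84% and 5.75% of all tested genes. Ribosomal proteins, mitochondrially encoded genes, tendon and fin fold, axon guidance, basement membrane and the MMP, ADAMTS and TIMP list reach furthest past the red line. Yolk and ion channels come next. Cartilage, sterol synthesis and splicing reach furthest past the blue line.

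Genes of signalling pathways were called at shares mostly near or under the 8.84% higher and 5.75% lower of all tested genes. In the BMP and TGF-beta pathway 8 of 68 were higher (11.8%) and 5 lower (7.35%), and in Wnt 3 (6.82%) and 1 (2.27%) of 44. In FGF they were 4 (9.76%) and 2 (4.88%) of 41, and in hedgehog signalling 4 (16.7%) and 1 (4.17%) of 24. The hedgehog calls were rises of foxf2a, foxf1 (0.66 ± 0.14), boc (0.37 ± 0.07) and scube2 (0.37 ± 0.09) and a fall of gas1b (-0.52 ± 0.12). Besides ccn2b, bmp1a, wfikkn1, fgf7 and foxf2a, the Wnt effector gene tcf7l2 stood at 452, 476 and 496 CPM in DMSO and 333, 353 and 378 CPM with TCDD (-0.42 ± 0.08, adjusted p = 0.00304). The Dickkopf receptor gene kremen1 (2.27 ± 0.50) and the MAP kinase inhibitor gene spred2b (1.25 ± 0.27) were higher in wild type and lower in the mutants, as was the ligand gene wnt9a (3.46 ± 0.70), while rspo3 was higher in both (0.82 ± 0.22). The other FGF calls were rises of il17rd (0.46 ± 0.10) and spry1 (0.48 ± 0.16) and falls of fgfr2 (-0.43 ± 0.10) and spred3 (-0.31 ± 0.10). Of 43 Hox genes none was higher and 3 were lower (6.98%, near the 5.75% of all tested genes), hoxb9a (-0.41 ± 0.08), hoxb5a (-0.35 ± 0.09) and hoxa9a (-0.57 ± 0.15). The last 2 of these were not called in the 6 wild-type libraries alone. Of 29 neural crest genes 3 were higher, prrx1a (0.40 ± 0.09), twist2 (0.65 ± 0.16) and tfap2a (0.23 ± 0.08), and 3 lower, snai1b (-0.61 ± 0.11), its relative snai2 (-0.42 ± 0.09) and sox9b. The falls were called in the 6 wild-type libraries alone and the rises were not.

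Of 36 liver genes 6 were higher and 2 lower, and of 18 yolk genes 4 were higher and none lower. In the 6 wild-type libraries alone 2 and 1 of the liver list and 2 and none of the yolk list were called. The liver falls were hpxa, for the heme carrier hemopexin (-1.81 ± 0.48), and a1cf (-0.37 ± 0.12). The lipoprotein gene apoc1 stood at 241, 289 and 371 CPM in DMSO and 414, 536 and 456 CPM with TCDD (0.64 ± 0.13, adjusted p = 0.00653), and ctsl.1, a cathepsin gene, at 0.685, 0.649 and 1.43 against 4.42, 3.69 and 3.82 CPM (2.11 ± 0.33, adjusted p = 0.00134). Both rises were also called in the mutants. The others of the yolk list were apoeb (0.42 ± 0.09) and apoa1a (0.56 ± 0.16). Coagulation factor V, from f5, was higher in wild type (0.73 ± 0.14) and not called in the mutants (-0.03, adjusted p = 0.874). Of the 45 genes of glycolysis and gluconeogenesis 4 were higher (8.89%) and 2 lower (4.44%), shares near those of all tested genes. The gluconeogenic gene pck1 went from 29.2, 43.8 and 37.5 to 65.3, 58.5 and 85.6 CPM (0.92 ± 0.17, adjusted p = 0.00316). The pyruvate kinase gene pkmb went from 1466, 1511 and 1748 to 1119, 957 and 974 CPM (-0.63 ± 0.11, adjusted p = 0.00237), and pdha1a, a subunit of pyruvate dehydrogenase, from 22.2, 11.9 and 12.6 to 3.89, 3.85 and 6.16 CPM (-1.75 ± 0.28, adjusted p = 0.0017). Groups did not overlap in these genes. The other rises, all of genes that act in glycolysis, were pfklb (0.70 ± 0.15), gpia (0.54 ± 0.12) and pgam2 (0.52 ± 0.14).

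Several genes of sterol synthesis fell. Of 29 genes 6 were lower (20.7%) and 1 higher (3.45%), with a median of -0.28, which was also the median with the score as a term, when 3 were called lower and none higher. The isomerase gene idi1 stood at 144, 128 and 141 CPM in DMSO and 104, 79.7 and 76.8 CPM with TCDD (-0.67 ± 0.11, adjusted p = 0.00221), the squalene synthase gene fdft1 at 28.9, 39.3 and 22.8 against 14.9, 18.4 and 19.8 CPM (-0.78 ± 0.18, adjusted p = 0.0103), and ggps1, of isoprenoid synthesis, at 99.9, 91.8 and 111 against 75.7, 69.4 and 76.6 CPM (-0.45 ± 0.09, adjusted p = 0.0053). No TCDD library reached the DMSO range in these genes. The other calls were falls of cyp51, acat2 (-0.49 ± 0.13) and ldlra (-0.53 ± 0.17) and a rise of srebf1 (0.88 ± 0.25), a regulator of lipid synthesis, which fell in the mutants. In the 6 wild-type libraries alone 4 were lower and 1 higher.

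Of 81 ribosomal protein genes tested 40 were higher (49.4%), none lower and 41 not called, with a median of 0.54 against 0.03 for all genes. The gene rps4x stood at 87.0, 100 and 113 CPM in DMSO and 146, 145 and 178 CPM with TCDD (0.64 ± 0.10, adjusted p = 0.00117), and rpl4 at 664, 719 and 822 against 1003, 1055 and 1022 CPM (0.48 ± 0.09, adjusted p = 0.00344). Replicate 4 was the highest of the DMSO libraries in both and lay below every TCDD library. Summed over the list, levels were 12384 to 18228 CPM in DMSO and 17230 to 21063 CPM with TCDD, so at that sum the groups overlapped. In the 6 wild-type libraries alone 10 were higher, with the score as a term 47, and without replicate 1 of DMSO, replicate 3 of DMSO or replicate 4 of TCDD 15, 25 and 15. DESeq2 called 42 of the ribosomal protein genes higher and 1 lower. The median axis weight of the list lay at percentile 13.2. Processed copies of these genes can share their reads. Other parts of the translation and energy machinery gave lesser counts. Of 76 translation factors 12 were higher and 4 lower, with 2 and none in the 6 wild-type libraries alone and 3, 6 and 19 higher without replicate 1 of DMSO, replicate 4 of TCDD and replicate 4 of DMSO. Of 80 nuclear genes of the respiratory chain 14 were higher and 2 lower, of which 1 and 1 were called in the 6 wild-type libraries alone and 1 and 25 higher without replicate 1 and replicate 4 of DMSO. With the score as a term 20 of them were higher and 1 lower, and their median axis weight lay at percentile 16.4. Of 13 mitochondrially encoded genes 6 were higher, led by mt-nd6 (0.74 ± 0.12, adjusted p = 0.00192), and 2 in the 6 wild-type libraries alone. The 6 are 46.2% of this short list, a share near the 49.4% of ribosomal protein genes. Summed over the list, levels were 23460 to 24736 CPM in DMSO and 24171 to 28317 CPM with TCDD, ranges that overlap.

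Several splicing genes fell. Of 105 tested 19 were lower (18.1%) and 3 higher (2.86%), with 5 and none in the 6 wild-type libraries alone and 7 and 11 lower without replicate 3 and replicate 4 of wild-type TCDD. Members of the SR family led the list. The gene srsf5b stood at 747, 690 and 784 CPM in DMSO and 517, 413 and 484 CPM with TCDD (-0.65 ± 0.09, adjusted p = 0.000536), srsf3b at 451, 538 and 486 against 344, 332 and 402 CPM (-0.45 ± 0.09, adjusted p = 0.00449) and srsf6b at 270, 257 and 299 against 200, 218 and 211 CPM (-0.40 ± 0.08, adjusted p = 0.00425). The groups were apart in all of them. The median of the list was -0.031, and 83 of the 105 were not called. With the score as a term 3 were higher and 6 lower. The SR genes named lay above 100 CPM, and of all tested genes at 100 CPM and over 18.8% were lower, against 6.68% at 5 to under 100 CPM. The list was not compared with genes of like abundance, so its share of falls is not set apart from that of abundant genes. Of 52 replication genes 4 were lower (7.69%) and none higher, uhrf1 (-0.44 ± 0.09), orc6 (-0.52 ± 0.13), ccnd1 (-0.37 ± 0.08) and rrm2 (ENSDARG00000078069, -0.69 ± 0.13). A second gene ID with the symbol rrm2 held 491, 210 and 292 reads in DMSO and 246, 592 and 1154 with TCDD. Of 32 genes of the p53 and DNA damage response none was called by edgeR, with 1 higher and 3 lower at an unadjusted p under 0.05; DESeq2 called 1 lower, as did edgeR in the 6 wild-type libraries alone.

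The genes called in wild type were looked up in the mutants, whose exposed and vehicle libraries are separate from those of wild type. In the mutants 17.5% of all tested genes were higher with TCDD and 18.6% lower. Of the 1156 genes lower in wild type, 726 were lower in the mutants too (62.8%) and 6 higher. Of the 1777 genes higher in wild type, 537 were higher in the mutants (30.2%) and 759 lower (42.7%). The difference between the lines was itself called for 2416 genes (12%), with 1051 of the 1777 and 66 of the 1156 among them; since these sets were chosen on the wild-type change, the counts are a description. With the score as a term no difference was called by edgeR, with 1503 genes at an unadjusted p under 0.05, against 2930 calls by DESeq2 and 2383 by limma-voom without that term. The median change of the 1777 was 0.868 in wild type and -0.279 in mutants, and that of the 1156 was -0.453 and -0.341. In the mutants the score moved down with TCDD, from -8.48 to 30.4 in DMSO to -28.9 to -11.1, and up in wild type. The score as a term thus also takes away part of any difference between lines that runs along the axis.

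**Figure D5:**
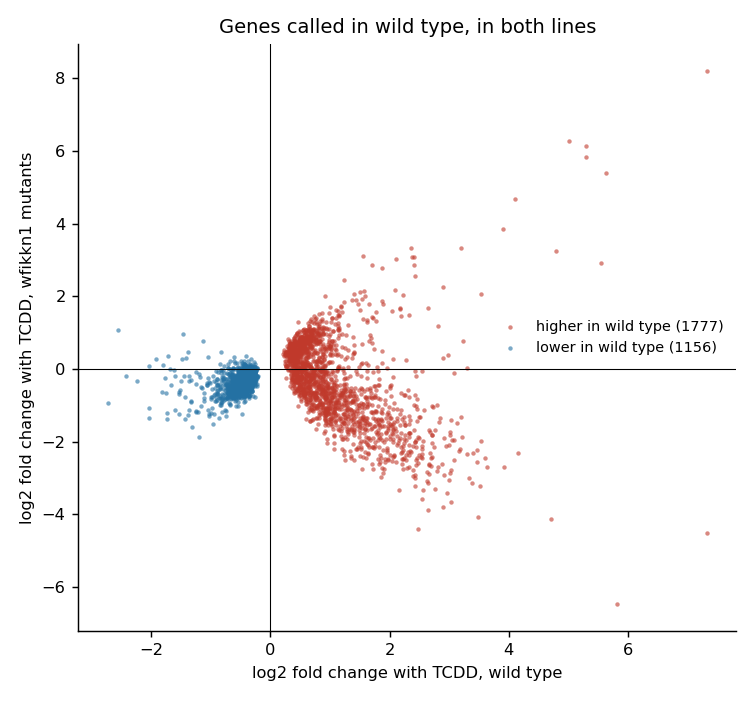
Log2 fold change with TCDD in wild type (horizontal) and in wfikkn1 mutants (vertical) of the genes called in wild type, 1 point per gene. The 1156 genes lower in wild type lie mostly below 0 in mutants as well, while the 1777 higher ones split into an upper arm that holds cyp1a and a lower arm of 759 genes that fell in the mutants.

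Of the 763 genes that rose in both the fit of 14 and that of 6 libraries, 487 were lower in the mutants (63.8%) and 134 higher, and of the 387 that fell in both, 299 were lower there (77.3%). Among the 295 higher and 272 lower genes that were called with the score as a term as well, 118 and 224 moved in the same direction in the mutants and 142 and 0 in the opposite one. Rises with same-direction calls in mutants held the metabolic genes and ccn2b, ncam3, bmp1a, pkhd1l1, fgf7, ostn, foxf2a, thbs1b, vcanb and cdkn1ba. Rises that were falls in mutants held the guidance genes and ion channels named above, hspg2, col12a1b, cspg4 and kremen1. The authors' deposited table of this comparison listed 2871 genes, 1702 higher and 1169 lower, and 2815 of them (98%) were called here in the same direction, which is 96% of the 2933 called here. Log2 changes differed by at most 0.0022. The submitters name edgeR and the libraries are the same, so this overlap is no independent check.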

How the data were processed

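Libraries were poly(A)-selected and stranded, and sequenced as 100 bp single-end reads, per the labels' protocols. The authors deposited raw read counts per gene; cutadapt 1.8.1, HISAT2 2.2.0, SAMtools 1.10, HTSeq 0.12.4, edgeR and build GRCz11 are listed per the submitters' processing notes, and the strand setting and annotation release are not given in the sources used here. Deposited tables of comparisons hold the authors' log2 fold changes, p-values and FDR, and an F score per gene, for genes under an FDR of 0.05 only.

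Genes were filtered with filterByExpr (20098 of 32520 tested, 99.9% of counts), scaled by TMM and tested with edgeR 4.0.16 in R 4.3.3 on all 14 libraries, 1 coefficient per group, by the quasi-likelihood F test with Benjamini-Hochberg adjustment at 0.05. The shared biological coefficient of variation was 0.151, and 0.177 in the 6 wild-type libraries. Replicates of a group differed beyond sampling noise, with chi-square over degrees of freedom of 16.6 to 28.7. The axis is the first principal component of log2 CPM after removal of group means, over 15143 genes. The same code was tested on simulated data holding 200 changed genes. Alternatives were median-ratio scaling, other filters, DESeq2 1.42.0, limma-voom (limma 3.58.1), the 6 wild-type libraries alone, a replicate block, the score as a term and leaving out each wild-type library.

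The comparison, its gene lists and its rules were chosen with earlier results of these data known. Named genes were those called in both the fit of 14 and that of 6 libraries, with groups that do not overlap, a gene name and no place in the AHR battery: by smallest adjusted p, 12 per direction at 5 to under 100 CPM, 6 at 100 CPM and over and 5 at 1 to under 5 CPM. All battery members, wfikkn1 and up to 4 called members per list of smallest adjusted p were added; which of these are printed, and the further members named to complete small counts, was decided after their values were seen. Gene symbols were read from the authors' tables and, failing that, from a list of names by ID, which left 2796 IDs unnamed; since the authors' tables list called genes, 2901 of the called genes took their symbol from them. Of list entries, 1561 matched by symbol, 578 in capitals, 31 by older symbols, and 80 had no ID. Promoter sequences planned for the battery were not used here.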

Additional observations from a re-analysis of the deposited data

Results flagged for a closer look

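Some of the named genes responded differently in the wfikkn1 mutants, by edgeR's test of the difference itself with Benjamini-Hochberg adjustment over all tested genes. Values are the log2 change with TCDD in mutants minus that in wild type, and adjusted p ran from 0.000199 to 0.0497. Among genes that rose in wild type and fell in mutants the differences were KCNV1 (-2.43), aqp4 (-3.54), cldn19 (-1.03), col12a1b (-1.53), cspg4 (-3.56), dcc (-2.43), epha3 (-1.91), ext1a (-1.37), hcn4 (-6.37), hspg2 (-2.40), jag2a (-1.96), kcnc3b (-3.61), kremen1 (-4.77), ntn2 (-1.98), pax3b (-2.04), plxnb3 (-4.34), ryr3 (-1.21), scn4ba (-2.46), spred2b (-2.57), sptb (-1.30), srebf1 (-1.83), wnt9a (-6.01) and xylt1 (-4.10).

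The change was larger in the mutants, in the same direction, for apoc1 (0.63), apoeb (0.49), cyp1a (0.89), cyp1c1 (0.54), gstp1 (0.53), mmp13a (1.15), pck1 (1.08), prrx1a (0.39), pygl (0.49), tiparp (0.51), ugt1b1 (0.71) and ugt1b5 (0.66). It was smaller in the mutants, or not called there, for aatka (-1.49), ahr2 (-0.38), cx44.2 (0.81), epyc (0.33), f5 (-0.76), gfap (0.46), iqsec3b (-2.47), mfsd2ab (1.18), naa38 (0.37), prox1a (-0.51), ryr1a (-1.26), srsf6b (0.32) and tmem242 (0.61). With the library score as a term none of the 20520 genes of that fit differed between lines by edgeR, with 1503 at an unadjusted p under 0.05. Exposed libraries had the higher scores among wild type and the lower ones among mutants. That fit therefore also takes away part of any difference between lines that runs along the axis. It cannot show the part of the scores in these differences, which was not tested.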

How the results depend on the processing

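The 1777 higher and 1156 lower genes of wild type became 773 and 397 in the 6 wild-type libraries alone, and 654 and 483 with the library score as a term; DESeq2 called 1798 lower. Leaving out each wild-type library in turn gave 1177 to 1709 higher and 602 to 1308 lower, and 1802 to 2761 genes differing between lines. The score as a term, which takes away part of such differences along the axis, left 0. The cause was not tested beyond the fewer libraries of the smaller fits. Entered as a replicate block in the 6 wild-type libraries, the labels' replicate numbers gave 937 higher and 446 lower. Deviations from the group mean correlated at 0.206, -0.0222 and 0.0535 between DMSO and TCDD samples of the same number. Pairs of unlike number ranged from -0.199 to 0.168. With 3 libraries per group, these values cannot decide whether samples of the same number share a clutch or batch. Other scaling, filters and limma-voom kept both counts within 1.5 times. The share of calls that were higher was 60.6% in the main fit and 61.3% with limma-voom. It was 51.1% with median-ratio scaling, 52.8% without a filter and 50.9% with a filter of 1 CPM in 3 libraries. The counts of lost calls that follow cover 193 of the called genes named, and the lists of lost calls further below also hold a gene outside them. None of the 193 changed direction. Of 193 named genes with a call, 64 lost it in the 6 libraries alone, 60 with the score as a term, 2 with DESeq2 (of the 190 to which it gave an adjusted p), 4 with limma-voom, 8 with median-ratio scaling, and 57 without at least 1 wild-type library.

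Without replicate 1 of wild-type DMSO, calls were lost for CNN1, RHCG, a1cf, apoa1a, aqp1a.1, aqp4, bmp10, cldn19, cldnk, cyp24a1, cyp51, ext1a, hpxa, kdrl, klf1, lbx2, lyve1a, map2, mef2aa, mef2cb, myh6, nkx3-2, nppa, pgam2, prox1a, rspo3, ryr1a, slc4a4b, sox19b, spred3, spry1, srebf1, sult2st1, tfap2a and twist2. Without its replicate 3, those of CNN1, a1cf, apoa1a, aqp1a.1, bmp10, cldn19, cldnk, cyp2aa7, cyp3c3, cyp51, erbb3b, hcn4, inab, kdrl, ldlra, myl10, pde6c, pgam2, plvapa, prdm1a, ryr1a, scube2, sox19b, spry1 and tfap2a were lost. Without its replicate 4, those of CNN1, RHCG, aqp4, cldn19, cyp24a1, cyp2aa7, cyp2r1, erbb3b, ext1a, hcn4, inab, kdrl, mef2aa, myh6, myl10, nppa, pde6c, prox1a, ryr1a, scube2, slc4a4b, spred3, spry1, srebf1, stmn2a, sult2st1 and tfap2a were lost. Without replicate 1 of wild-type TCDD, those of CNN1, RHCG, aqp1a.1, aqp4, bmp10, cldn19, cyp2r1, cyp3c3, erbb3b, ext1a, hcn4, kdrl, ldlra, lyve1a, mef2aa, mef2cb, myl10, pde6c, plvapa, prdm1a, prdx1, prox1a, rspo3, ryr1a, slc4a4b, spred3, stmn2a, sult2st1 and tfap2a were lost. Without replicate 3 of wild-type TCDD, those of CNN1, RHCG, a1cf, aqp4, bmp10, cyp2aa7, cyp51, dre-mir-125a-2, erbb3b, ext1a, fgfr2, hcn4, hoxa9a, hoxb5a, hpxa, kdrl, klf1, lbx2, ldlra, lyve1a, map2, mef2aa, myh6, myl10, nppa, pde6c, prdm1a, prdx1, prox1a, slc4a4b, snap25a, sox19b, sp7, spred3, spry1, stmn2a, sult2st1, tfap2a and uros were lost. Without replicate 4 of wild-type TCDD, those of RHCG, a1cf, acat2, apoa1a, aqp1a.1, bmp10, cldn19, cldnk, cyp24a1, cyp2aa7, cyp2r1, cyp3c3, erbb3b, hcn4, hoxa9a, inab, kdrl, klf1, lbx2, ldlra, mef2cb, myh6, nkx3-2, nppa, pde6c, pgam2, plvapa, prdm1a, prox1a, s100b, scube2, slc4a4b, snap25a, sox19b, sp7, spred3, spry1 and srebf1 were lost. Depth limited rare genes: 3 reads, the limit that a count of 0 allows, were 0.119 to 0.139 CPM in these libraries, for counting error only.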
